A study of Rattus norvegicus with 2 samples.

Results

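A set of 9 rat genes of the immediate early response was followed across both arrays of a study that raised the glucose transporter GLUT1 in vascular smooth muscle cells. They were Fos, Fosl1, Jun, Junb, Egr1, Ier2, Ier3, Atf3 and Myc. Every probe set whose single annotated gene was one of them was taken, which gave 12 probe sets for 9 genes, out of 12783 named probe sets for 10411 genes. The name AP-1 and Egr covers the Fos, Jun, Atf3 and Egr1 genes, while Ier2, Ier3 and Myc are immediate early genes of other families. The cells were A7r5, an established line of rat embryonic aortic smooth muscle, in medium with 5.5 mM glucose. The GLUT1 group received an adenovirus with the human GLUT1 cDNA and the control group the empty adenovirus, so both groups had been infected, for 72 hours at a multiplicity of 10. RNA collected on 3 days was pooled within each group and read on 1 array, so there are 2 arrays, 1 per group. No difference reported here has a replicate behind it, and no p-value, standard error or SD over samples can be given.

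Immediate early genes are those that a stimulated cell transcribes without first making new protein. Growth factors, stretch, stress and calcium reach them through MAP kinases, the serum response factor SRF with its ternary complex partners, and CREB. Most of their mRNAs are short-lived, so a level read long after a stimulus is a steady state and not the first burst. Fos and Jun proteins pair through leucine zippers to form the AP-1 transcription factor, and Egr1 is a zinc finger factor. In vessel wall cells both are known for their induction by injury and by mitogens.

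None of the 5 measured members differed 2-fold between the pools, and Ier3 alone of the members lay above the 75th percentile of brightness. Junb and Ier2 were higher with GLUT1 at a log2 ratio of 0.31 each, Myc at 0.17, and Ier3 and Fosl1 lay at 0.02 and -0.03. Fos, Jun, Egr1 and Atf3 were too dim to be counted as measured. Here a log2 ratio is the GLUT1 intensity over the empty-virus intensity, with every value under the 25th percentile, 175, raised to that floor. A gene is measured when the mean log2 intensity of its brightest probe set reaches the median of all probe sets, 8.99 or an intensity of 507. The measured genes numbered 5 of the 9, with 4 above 0 and 1 below. Over all 6114 measured genes 52.2% were above 0 and the median log2 ratio was 0.01. The median of the 5 was 0.17, but it was 0.02 when all 9 genes were taken without the filter, so nothing is read from it. A single measured gene passed 2-fold, which is 0.0164% of the 6114, and 0 of the 5 did. At a smaller mark, a log2 ratio of 0.25 or 1.19-fold, 4.27% of measured genes were higher and 3.22% lower, 7.49% in either direction, and 2 of the 5 were higher. Junb passed the brightness filter only through its GLUT1 value, its empty-virus intensity of 473 being under 507, so the count of 2 is a description of the 5 and lends them no support.

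**Figure D1:**
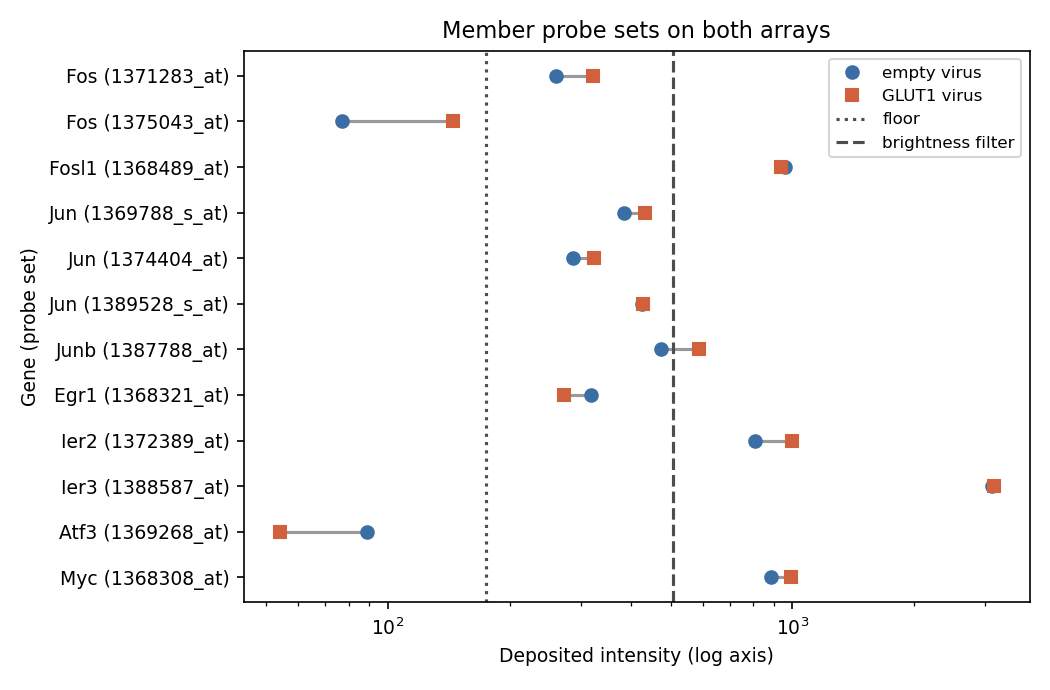
Deposited intensity (log axis) of the 12 probe sets of the 9 genes, with a circle for the empty-virus array, a square for the GLUT1 array, a dotted line at the floor of 175 and a dashed line at the brightness filter of 507. By deposited values, the GLUT1 value is the higher in 9 probe sets and the lower in 3, beside 50.1% higher among all named probe sets. This count includes 2 of the 12, 1 of Fos and that of Atf3, that are under the floor on both arrays. It also includes several probe sets of the same gene, so nothing is read from it. Only Fosl1, Junb, Ier2, Ier3 and Myc have a mean above the filter. Brightness differs between probe sets for reasons of probe affinity, so positions along the axis do not rank the genes by RNA amount.

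Junb and Ier2 are the 2 members above the 0.25 mark and lie near each other on rat chromosome 19, so their promoters are shown, with that of Fosl1, the measured member just below 0. Each line holds the 250 bases before the annotated transcription start on the plus strand, from RefSeq on the GRCr8 build: Junb at chr19:40080876-40081125, Ier2 at chr19:40399123-40399372 and Fosl1 at chr1:212183635-212183884. Capitals mark matches, on either strand, to the cAMP response element CRE (TGACGTCA), the AP-1 site (TGANTCA), the Egr site (GCGNGGGCG), the TATA box (TATAAA), the CCAAT box (CCAAT) and the CArG box that SRF binds.
Junb: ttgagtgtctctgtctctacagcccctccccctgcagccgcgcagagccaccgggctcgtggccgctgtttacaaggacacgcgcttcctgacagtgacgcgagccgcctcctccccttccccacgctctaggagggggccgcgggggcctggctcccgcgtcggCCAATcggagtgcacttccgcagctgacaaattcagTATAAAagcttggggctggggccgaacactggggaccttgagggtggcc
Ier2: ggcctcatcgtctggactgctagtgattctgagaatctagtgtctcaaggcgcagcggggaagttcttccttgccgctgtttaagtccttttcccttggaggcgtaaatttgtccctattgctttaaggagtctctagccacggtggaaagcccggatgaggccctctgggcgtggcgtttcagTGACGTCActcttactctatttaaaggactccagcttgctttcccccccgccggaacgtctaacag
Fosl1: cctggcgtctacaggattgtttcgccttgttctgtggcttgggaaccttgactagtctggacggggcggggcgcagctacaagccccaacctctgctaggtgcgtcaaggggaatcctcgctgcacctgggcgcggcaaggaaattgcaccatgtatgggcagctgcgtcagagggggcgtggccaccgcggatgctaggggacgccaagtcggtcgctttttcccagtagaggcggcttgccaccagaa
The Ier2 window held a CRE from base 66 to base 59 before the start, a motif found in 1.59% of 33469 rat promoter windows of the same length. Junb held a TATA box at bases 49 to 44 and a CCAAT box at bases 85 to 81 before the start, motifs found in 12.9% and 34.0% of windows. No searched motif was found in the Fosl1 window. Egr1, whose window was searched but is not printed, held a pair of CArG boxes, at bases 105 to 96 and 83 to 74 before the start, and a CCAAT box. A CArG box was found in 1.5% of windows, an AP-1 site in 6.34% and an Egr site in 4.29%. The promoters of Fos, Jun, Ier3, Atf3 and Myc were not used here. A CCAAT box can lie inside a CArG box, and none did in these windows. A match describes these letters only.

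Among the Jun genes, Junb, which encodes an AP-1 subunit often opposed to Jun in growth control, was read at 473 with the empty virus and 587 with GLUT1. The GLUT1 array was the brighter by 114 units, a log2 ratio of 0.31 or 1.24-fold. Probe sets as dim as that of Junb scatter widely, and the difference was 1.51 times the local spread of 0.21. The local spread is a robust SD of the ratios among the 6.31% of measured probe sets that are closest in brightness. Junb lies just above the filter and only measured probe sets were used, so its neighbours lean to brighter ones. Its local spread may therefore be too low. Jun, the founding partner of Fos in AP-1, was read by 3 probe sets. The first, 1369788_s_at, gave 383 and 432, the second, 1374404_at, 286 and 324, and the third, 1389528_s_at, 425 and 428, with log2 ratios of 0.18, 0.18 and 0.01. All 3 were higher on the GLUT1 array, by 49, 38 and 3 units. They share a transcript, and probe sets with the suffix _s_at can read more than one transcript, so they are no independent readings. All 3 were below the brightness filter. Jund, the Jun gene that is expressed without stimulation in most cells, is no member but closes the family. It was read at 352 and 395 by its brighter probe set, 1387762_s_at, and at 123 and 206 by 1375768_at, both below the filter.

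Among the Fos genes, Fos was dim on both arrays. Its brighter probe set, 1371283_at, gave 260 and 321, a difference of 61 units and a log2 ratio of 0.31. The other, 1375043_at, gave 77 and 145, both under the floor, so no ratio is given. Among 2704 named probe sets that were below the filter and above the floor on both arrays, 34.4% had a log2 ratio of at least 0.25 in either direction and 18.0% were higher by that much, so the ratio of Fos is common at its brightness. Fosl1, which encodes FRA-1, the Fos protein that stays high in growing mesenchymal cells, was read at 960 and 937. Its log2 ratio of -0.03 was -0.208 times the local spread and above that of 37.1% of measured genes. Of the family genes that are no members, Fosl2, encoding FRA-2, was read at 687 and 722 (log2 ratio 0.07), and Fosb at 39 and 135, both under the floor. Over the 7 Fos and Jun genes, 10 of 11 probe sets were brighter on the GLUT1 array, all but that of Fosl1, while among all named probe sets 50.1% were. This counts deposited values, and 2 of the 11, 1 of Fos and that of Fosb, were under the floor on both arrays. Fos, Jun and Jund have several probe sets each, and probe sets of the same gene are no independent readings. The family also leaves out Egr1 and Atf3, so nothing is read from this count about the members. Only 3 of the 11 were measured, and of these only Junb passed the 0.25 mark.

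**Figure D2:**
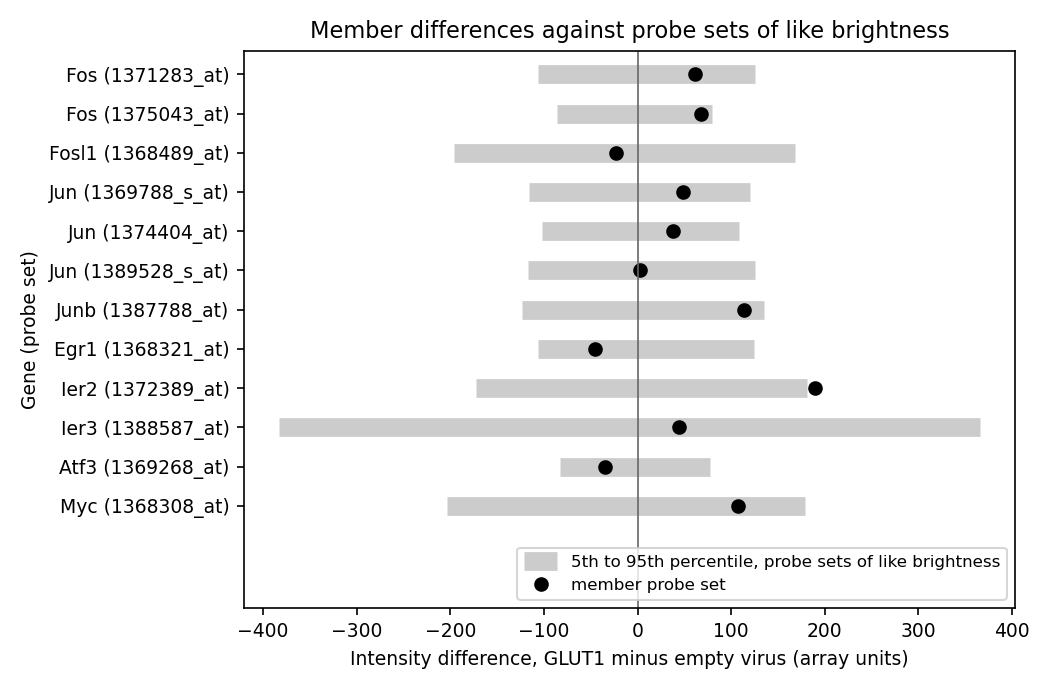
Intensity difference, GLUT1 minus empty virus, in array units for each of the 12 probe sets (points), over the 5th to 95th percentile of the same difference in the 3.16% of probe sets nearest in mean intensity (grey bars). Ier2, at 190 units against an upper limit of 181, is the 1 probe set outside its bar, and the other 11 are inside.

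The intensity difference can be given for dim probe sets too, since it needs no logarithm. For each of the 12 it was set beside the differences of the 3.16% of all probe sets that were nearest in mean intensity. In 11 of the 12 it lay between the 5th and 95th percentiles of those neighbours. Junb at 114 units lay between limits of -123 and 135, and Fos at 61 units between -106 and 125. The dimmer Fos probe set, 1375043_at, at 68 units lay between -86 and 80. Ier2 at 190 units lay just above its upper limit of 181, and 96.2% of its neighbours had a smaller difference. Percentile limits leave some probe sets outside by construction, so nothing is read from 1 of 12 lying outside. These limits hold array noise and real differences together.

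Egr1, the early growth response factor that SRF controls through CArG boxes, was read at 317 and 272. It was the lower with GLUT1, by 45 units and a log2 ratio of -0.22, and below the brightness filter. Its difference exceeded that of 52.5% of its neighbours in size. The other Egr genes were below the filter as well. Egr3 was read at 340 and 360 and the brighter Egr4 probe set, 1375784_at, at 460 and 505. Both Egr2 probe sets and the second of Egr4 were under the floor on both arrays. The NAB proteins, which bind Egr factors and repress their activity, were measured and differed in sign: Nab1 was read at 1145 and 1029 (log2 ratio -0.15), and Nab2, itself an Egr1 target, at 1321 and 1458 (log2 ratio 0.14). Neither passed the 0.25 mark.

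Ier2 and Ier3 are small immediate early proteins that are not related in sequence to AP-1. Ier2, a nuclear protein, was read at 810 and 1000. The GLUT1 array was the brighter by 190 units, a log2 ratio of 0.31 or 1.24-fold, larger than that of 97.7% of measured genes and 1.80 times the local spread of 0.17. Ier3, which is linked to cell survival and to ERK signalling, was read at 3106 and 3150. Its log2 ratio of 0.02 was 0.204 times its local spread of 0.11. Between Junb and Ier2 on chromosome 19 the annotation holds 17 protein-coding genes, of which 11 were on the array and 9 measured. Their log2 ratios ran from -0.13 for Gcdh to 0.21 for Gadd45gip1 with a median of 0.04, 7 above and 2 below 0, and 0 passed 0.25 in either direction.

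Atf3, a stress-induced repressor that joins the AP-1 network and that the ATF4 pathway induces, was read at 89 and 54. Both values were under the floor, so no ratio is given and nothing is read from their direction. Of 6 measured genes of the ATF4 stress pathway, 3 were above and 3 below 0 with a median log2 ratio of -0.02, from Ppp1r15a at -0.15 to Ddit3, which encodes CHOP, at 0.09. Slc7a5, the 1 gene past 2-fold, encodes an amino acid transporter that ATF4 can induce, and was read at 660 and 1643.

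Myc, the growth-promoting helix-loop-helix factor, was read at 884 and 991. The GLUT1 array was the brighter by 107 units (log2 ratio 0.17), or 1.01 times the local spread of 0.16. Its obligate partner Max was read at 3838 and 3736 (log2 ratio -0.04), the lowest of the network list. Of the 9 measured genes of that list, 7 were above 0 and 2 past the 0.25 mark, with a median of 0.03. Zbtb17, encoding MIZ1, through which Myc represses genes, was read at 1585 and 2017 (log2 ratio 0.35). The other was Mxd3, which encodes a Max partner that competes with Myc, at 804 and 995 and a log2 ratio of 0.31. Of 16 genes known as Myc targets, all measured, 7 were above and 9 below 0 with a median of -0.02. They ran from Ddx21, an RNA helicase of the nucleolus, at -0.19 to Ccnd2, a D-type cyclin, at 0.22, and 0 passed 0.25 by the brightest probe set. A second measured probe set of Cad, an enzyme of pyrimidine synthesis, gave -0.30 against 0.11 in the brighter one.

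**Figure D3:**
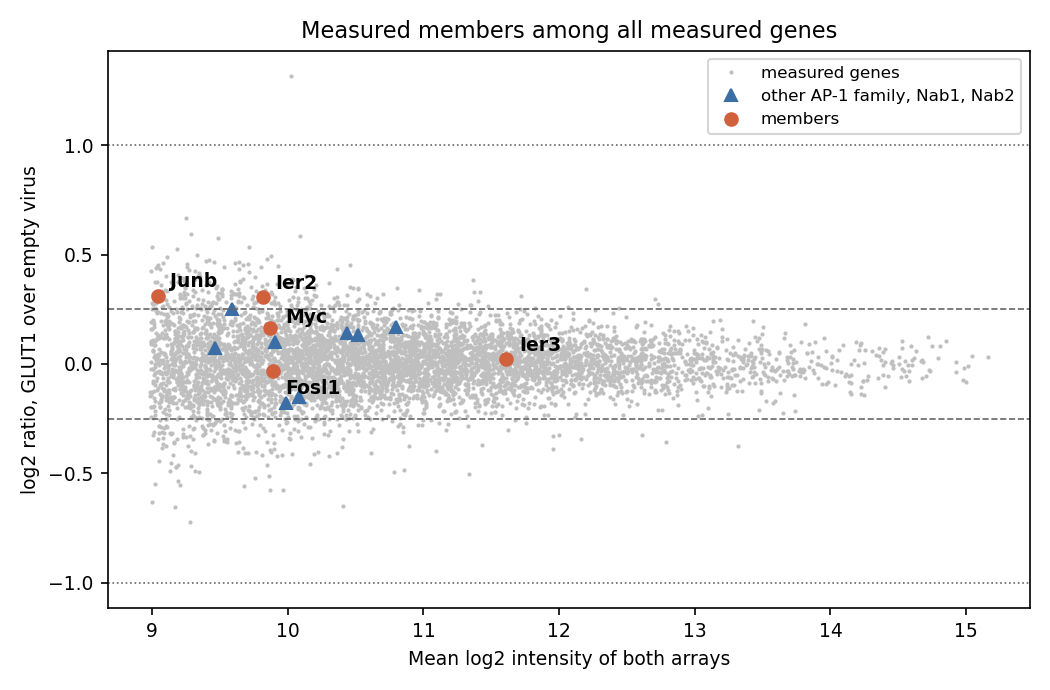
Log2 ratio, GLUT1 over empty virus, against the mean log2 intensity of both arrays for the 6114 measured genes (grey), the 5 measured members (circles, named) and 8 measured relatives, Fosl2, Jdp2, Mafg, Mafk, Maf, Atf2, Nab1 and Nab2 (triangles). Junb and Ier2 sit above the dashed line at 0.25, no member reaches the dotted lines at 2-fold, and the grey cloud is widest at the dim end, where Junb lies.

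Genes that pair with Fos and Jun or share their sites showed small differences. Of 9 such relatives on the array, Fosl2 among them, 6 were measured, 5 above and 1 below 0, with a median log2 ratio of 0.12 and none past 0.25. Atf2, which pairs with Jun at CRE-like sites, was the highest at 708 and 841. Its log2 ratio, 0.25 after rounding, fell short of the mark before it. Jdp2, a repressor that pairs with Jun, was read at 928 and 993 (log2 ratio 0.10). The small Maf proteins Mafk and Mafg had log2 ratios of 0.13 and 0.17. A dimmer measured probe set of Mafg, 1368874_a_at, gave -0.12, the opposite sign. Maf was the lowest at 1079 and 953 (log2 ratio -0.18), while a dimmer probe set, 1387165_at, gave 305 and 362.

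The wider set of immediate early genes lay on both sides of 0. Of 46 other immediate early genes on the array, 33 were measured, 15 above and 18 below 0, with a median log2 ratio of -0.03. At the 0.25 mark 1 was higher and 1 lower. Irf1, an interferon-responsive factor, was the highest at 587 and 873 (log2 ratio 0.57). Mcl1, a survival factor of the BCL2 family, was the lowest at 3575 and 2992 (log2 ratio -0.26), with a second measured probe set at -0.06. Ccn1, a matrix protein gene under SRF and YAP control, was read at 2318 and 2151, and Ccn2, its relative, at 10052 and 9276, each with a log2 ratio of -0.11. Ier5, which is related to Ier2, was read at 1333 and 1454 (log2 ratio 0.13). The last 3 were chosen after their values were seen.

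Upstream of the members, signalling genes lay on both sides of 0. Of 10 measured genes of the MAP kinase cascades 5 were above and 5 below 0, with a median of 0.03. Mapk7, which encodes ERK5, was the highest at 502 and 645 (log2 ratio 0.36), and its empty-virus value was under the filter. Nras was the lowest at 1607 and 1329 (log2 ratio -0.27), with a second measured probe set at -0.10. Map2k5, the kinase that activates ERK5, is named for its role after the values were known and gave 1104 and 943 (log2 ratio -0.23). The MAP kinase phosphatases Dusp1, Dusp5 and Dusp6, immediate early genes that end the signal, were the 3 measured feedback genes of 7 on the array. They had log2 ratios of -0.12, -0.06 and -0.21, and none passed 0.25.

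The factors and coactivators that act at the promoters of Fos and Egr1 showed small differences. Of 5 measured, 1 was above and 4 below 0, beside 52.2% above 0 among all measured genes, with a median log2 ratio of -0.16 and none past 0.25. Atf1, a CREB relative, was the lowest at 3740 and 3302 (log2 ratio -0.18), and Fhl2, a coactivator and an SRF target, the highest at 2346 and 2410 (log2 ratio 0.04). Srf itself was read at 1325 and 1171 (log2 ratio -0.18), and its ternary complex partner Elk3 at 3016 and 2699 (log2 ratio -0.16). Second measured probe sets gave -0.24 for Srf but the opposite sign for Elk3, at 0.07, and for Fhl2, at -0.06. The proteins that bind AU-rich elements in short-lived mRNAs, with the enzymes that degrade those mRNAs, had a median of -0.03 over 10 measured genes, 3 above and 7 below 0. Cnot7, a deadenylase subunit, was the lowest at 614 and 470 (log2 ratio -0.38) and the only measured gene of the list past the mark, and its GLUT1 value was under the filter. Zfp36l1, which directs such mRNAs to decay, was the highest at 0.17, and its relative Zfp36, tristetraprolin, was read at 760 and 743 (log2 ratio -0.03). Elk3, Srf and Zfp36 were chosen after their values were seen.

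**Figure D4:**
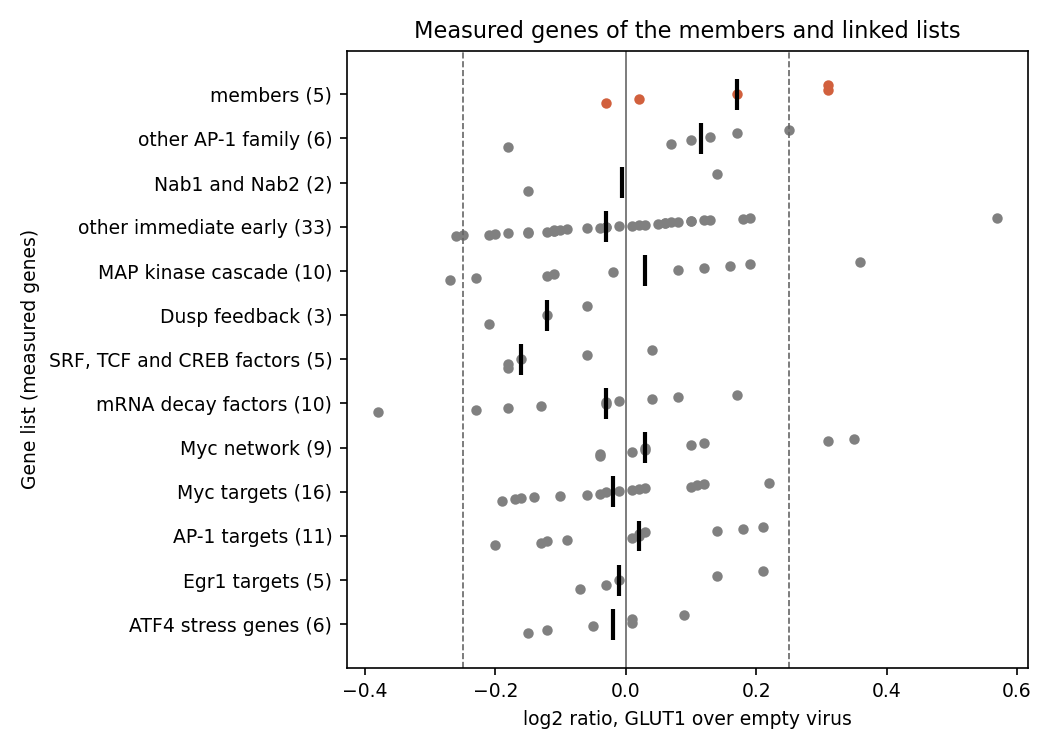
Log2 ratio, GLUT1 over empty virus, of each measured gene (points) in the member list and 12 linked lists, with the number of measured genes in brackets, a black bar at the list median and dashed lines at 0.25 either way. The members' median of 0.17 rests on 5 genes, of which Junb passed the filter only through its GLUT1 value, and over all 9 members without the filter it is 0.02. The 33 other immediate early genes centre on -0.03.

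Genes that AP-1 and Egr1 are known to activate had medians near 0. Of 19 AP-1 targets on the array 11 were measured, 7 above and 4 below 0, with a median log2 ratio of 0.02 and none past 0.25 by its brightest probe set. Ccnd1, encoding cyclin D1, had a log2 ratio of -0.12, while a dimmer measured probe set gave 0.33. Their highest was Tgfb1, which encodes the growth factor TGF-beta 1, at 1089 and 1255 (log2 ratio 0.21), and their lowest Hbegf, an EGF receptor ligand, at 1298 and 1126 (log2 ratio -0.20). Of 5 measured Egr1 targets, 2 were above and 3 below 0, with a median of -0.01. Tgfb1 is on this list too and was again the highest, and F3, tissue factor, was the lowest at 1360 and 1297 (log2 ratio -0.07).

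Facts of the whole series bear on these values. The arrays correlated at 0.993 (Pearson, log2 intensity, across 7939 measured probe sets), and the SD of the log2 ratio over the 6114 measured genes was 0.14. Where a gene had at least 2 measured probe sets, the difference between its 2 brightest gave an SD of 0.13 for a single log2 ratio, over 702 genes. The rat probe set of Slc2a1, the gene of GLUT1, was read at 2902 and 3121, and it was not used to measure the human transgene. Smooth muscle markers were bright on both arrays for Acta2, at 16303 and 16687, with 7 of 9 measured and log2 ratios from -0.09 for Myl9 to 0.19 for Smtn, while Myh11 was dim at 227 and 228. Of the markers of other cells, 1 of 5 endothelial genes was measured, Esam at 584 and 479 (log2 ratio -0.28), the GLUT1 value being under the filter, with 2 of 7 leukocyte genes, Aif1 and Cd14 at 0.14 and 0.18, and 0 of 6 skeletal muscle genes. The endothelial Pecam1 and leukocyte Ptprc were under the floor on both arrays. Not all unmeasured markers were that low, as the leukocyte genes Cd3e, Lyz2 and Cd68 lay between the floor and the filter. In pooled RNA, fewer cells of a type and less RNA per cell cannot be told apart.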

How the data were processed

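Per the labels' protocols, 5 µg of total RNA per pool was turned into biotin-labelled cRNA. The deposited values are linear intensities in whole numbers, 1 for each of 15923 probe sets on each array, with 57 manufacturer's controls among them. About 3% of values (3.01 and 3.04) are at or below 0, and both arrays have a median of 508, so the deposited intensities were already nearly equal in distribution. Software, summary method and normalization: not given in the sources used here. No detection calls were used.

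Groups follow the sample titles, since both samples carry the same description. Gene names came from the platform annotation and were brought up to date by gene ID (12748 of 12783 matched a GRCr8 gene table). The GLUT1 array was scaled to a median log2 ratio of 0 over the brighter probe sets (a shift of -0.0014), floored at 175 and logged. A gene is its brightest probe set. No test was possible with 1 array per group, and precision is limited by the number of arrays. The steps were tested on simulated data.

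Genes named are all members and, from each of the 16 other lists, the highest and lowest measured gene, with close relatives and exceptions stated as such. Members, lists and the 0.25 mark were chosen with earlier results of these data known. With 2 arrays, no gene is named for a like pattern. Alternatives covered the floor, filter, scaling, probe set choice and size marks. Python 3.11.15, numpy 2.4.6 and pandas 2.3.3 were used.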

Additional observations from a re-analysis of the deposited data

How the results depend on the processing

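No paired analysis was possible because there is 1 array a group. A value counted as moved when it shifted by more than 0.13, the SD of a single log2 ratio between probe sets of a gene, and a count when it altered by more than 1.5 times. Over the alternatives that alter a ratio and leave the gene measured, the log2 ratio ran from 0.31 to 0.32 for Junb, 0.30 to 0.31 for Ier2, 0.16 to 0.17 for Myc and -0.04 to -0.03 for Fosl1, and stayed at 0.02 for Ier3. All 5 have a single probe set and the arrays were deposited nearly equalised, so this constancy says little about stability. The median of the measured members, 0.17, became 0.02 with no filter, which admits all 9 genes, and 0.02 when the filter was raised to the 75th percentile, leaving Ier3 alone. The count of members past 0.25 became 0 under that filter. Over all genes, the count past 2-fold was 2 with a floor at the 40th percentile, 9 with no filter, 0 with the stricter filter and 8 at 1.5-fold, against 1. No value reversed. Low signal limits Fos, Jun, Egr1 and Atf3, whose probe sets all lay below the filter.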
